A study of Mus musculus with 11 samples.

Results

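Prdx5, Prdx6, Srxn1, Glrx and Gsr are 5 of the 4461 genes in a deposited table that compares mouse ErbB2+ mammary tumor cell lines with and without Cpt1a. The members were found by gene name, each name matched 1 row, and all 5 passed the filter on low counts. Cpt1a encodes the mitochondrial enzyme that commits long-chain fatty acids to oxidation. The RNA-Seq comparison asks how transcripts differ when this step is missing in ErbB2-driven tumor cells.

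The enzymes described here keep protein thiols reduced and remove peroxides. Peroxiredoxins such as Prdx5 and Prdx6 reduce peroxides through a reactive cysteine, and Srxn1 (sulfiredoxin) restores the cysteine of some peroxiredoxins after it has been overoxidized. Glrx (glutaredoxin) removes glutathione from protein thiols, and Gsr (glutathione reductase) uses NADPH to return oxidized glutathione to its reduced form. Several genes of this system are known targets of the transcription factor Nrf2, which binds antioxidant response elements.

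The lines came from mammary tumors of female MMTV-NIC mice of the FVB/N strain, in which the MMTV promoter drives activated ErbB2 and Cre recombinase in the mammary epithelium. The 4 NIC/Cpt1a L/L lines (KO_1922, KO_1925, KO_2768 and KO_4258) came from Cpt1a flx flx mice, which carry conditional Cpt1a alleles, and the 2 NIC/Cpt1a +/+ lines (WT_5257 and WT_8905) carried wild-type Cpt1a. They are called KO and WT lines below, as in their labels. All groups therefore share ErbB2 and Cre, the tumors were taken 8 weeks after palpation, the cells received no treatment, and the ages of the mice are not stated in the labels. Each line has 2 libraries, except KO_2768, for which 1 library was used. The titles of the samples word the allele status the opposite way, and the genotype field was followed. Cpt1a, Erbb2, Nfe2l2 (which encodes Nrf2) and Keap1 were not among the listed genes and were not analysed here, so the genotype could not be checked on the transcript itself.

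Library totals were 18247312 to 25386785 reads over 7 KO libraries and 15199378 to 17372643 reads over 4 WT libraries, so depth did not overlap between the genotypes and was higher in KO. The least-covered value of the 5 genes was 389 reads (Glrx in a library of WT_5257) and the highest was 7339 reads (Prdx5 in a library of KO_1925). A count of 3 reads corresponds to 0.118 to 0.197 counts per 1000000 reads (CPM), far under every value of these genes.

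Marker genes of other cell types differed between the lines. The summed CPM of the 3 listed epithelial markers of 22 (Csn3, Elf5 and Krt17) was 7351 and 9201 in the WT lines and 19.6 to 393 in the KO lines. Csn3, a milk casein, gave 7035 and 8903 CPM of the WT sums, while Krt17 went the other way, at 1.17 to 10.6 CPM in KO lines and 0 and 0.0312 CPM in WT lines. The 8 listed fibroblast and smooth muscle markers of 16 summed to 20.1 and 32.4 CPM against 783 to 6132 CPM, of which S100a4 alone gave 781 CPM in KO_4258, the line with the lowest sum. Tagln went the other way, at 1.13 to 2.87 CPM in KO lines against 3.75 and 7.07 CPM. The sum was highest in KO_2768, where Dcn, a matrix proteoglycan of fibroblasts, was at 1368 CPM. Dcn and Thy1 were at 0 reads in both WT lines and in KO_4258, which also had 0 reads of Fn1, Col1a2 and Pdgfrb. The 2 listed leukocyte markers of 17 (Csf1r and S100a9) summed to 313 CPM in KO_4258, of which Csf1r, the receptor of macrophage colony-stimulating factor, gave 312 CPM, and to 0.0316 to 19.9 CPM in the other lines. None of the 7 endothelial markers was listed. The lines carry the label of mammary epithelial cells, and the part of these marker differences in the values below was not tested. In bulk RNA, fewer cells of a type and less RNA per cell cannot be told apart.

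The genes lie on 5 chromosomes of the mm10 (GRCm38) assembly. Prdx5 (ENSMUSG00000024953) is at chr19:6906697-6910106 on the minus strand, Prdx6 (ENSMUSG00000026701) at chr1:161240112-161251219 on the minus strand, and Srxn1 (ENSMUSG00000032802) at chr2:152105516-152111376 on the plus strand. Glrx (ENSMUSG00000021591) is at chr13:75839868-75850151 and Gsr (ENSMUSG00000031584) at chr8:33652523-33698163, both on the plus strand. All 5 are protein-coding in the GENCODE M21 annotation, which ends Glrx at 75850154 and gives the other coordinates as the table does. Prdx5 overlaps Trmt112 on the opposite strand by 409 bases, and Gsr contains the small nucleolar RNA Gm24727. The strand setting of the counting is not given in the sources used here, so reads from the shared part of Prdx5 cannot be assigned to 1 of the 2 genes. Of all stretches of 50 bases in the Prdx6 transcripts, 0.136% also occurred in another gene (Prdx6b). For the Glrx transcripts the share was 0.0542% (Gm8202), and for the other 3 genes it was 0.

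The promoters were searched for the letters TGANNNNGC on either strand, where N is any base. This is a loose pattern for the core of the antioxidant response element, which Nrf2 binds. RefSeq's promoter table (GRCm38.p6; 250 bases before to 50 bases after the start) held Srxn1, Prdx5 and Glrx, 3 of the 5 genes, and had no entry for Prdx6 and Gsr. The 250 bases before each start are printed below, 5′ to 3′, with the matches in capitals. Srxn1 is shown for its number of matches, Prdx5 for the largest fold change and Glrx for having no match. Srxn1 is chr2:152105274-152105523 on the plus strand, Prdx5 is chr19:6910107-6910356 on the minus strand and Glrx is chr13:75839635-75839884 on the plus strand.
Srxn1: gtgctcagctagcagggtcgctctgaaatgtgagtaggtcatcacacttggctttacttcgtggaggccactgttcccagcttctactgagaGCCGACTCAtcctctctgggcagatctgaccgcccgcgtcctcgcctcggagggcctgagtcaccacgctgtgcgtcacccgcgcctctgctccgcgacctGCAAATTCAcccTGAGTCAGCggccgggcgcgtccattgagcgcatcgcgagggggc
Prdx5: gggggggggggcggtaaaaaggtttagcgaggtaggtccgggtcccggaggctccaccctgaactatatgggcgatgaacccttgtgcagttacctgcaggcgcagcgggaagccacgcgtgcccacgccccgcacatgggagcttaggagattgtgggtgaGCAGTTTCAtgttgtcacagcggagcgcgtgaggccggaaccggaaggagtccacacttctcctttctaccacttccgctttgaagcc
Glrx: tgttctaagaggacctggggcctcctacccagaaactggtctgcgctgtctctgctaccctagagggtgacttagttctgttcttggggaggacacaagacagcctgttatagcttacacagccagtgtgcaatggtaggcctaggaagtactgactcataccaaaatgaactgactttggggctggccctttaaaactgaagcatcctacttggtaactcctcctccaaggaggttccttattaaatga

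Srxn1 held 4 matches. The match at bases -45 to -37 from the start (TGAGTCAGC) was on the plus strand, and those at -158 to -150, -57 to -49 and 29 to 37 were on the minus strand, the last of them after the start and outside the printed stretch. Of 32851 promoters in the table, 41.3% held at least 1 match and 0.301% held 4 or more. Prdx5 held 1 match, at -88 to -80 on the minus strand, and both Glrx entries, which start 1 base apart, held 0. The plus-strand match in Srxn1 contains TGAGTCA, the AP-1 site, which 5.20% of the promoters held on either strand, that of Glrx included. A match describes the reference letters only, and its absence says only that the letters are not in this window.

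In the mean, all 5 transcripts were higher in KO lines than in WT lines, by 0.51 (Srxn1) to 1.69 (Prdx5) on the log2 scale. For 4 of the 5 every KO line lay above both WT lines, while Gsr was lowest of all lines in KO_2768. Of the 4268 listed genes tested, 35.1% had all 4 KO lines above both WT lines and 38.2% had all 4 below them. By the mean of the lines, 58.6% were higher in KO. The table holds only genes that differed in the authors' comparison of the same libraries, so separation between the genotypes is not independent of that selection.

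**Figure D1:**
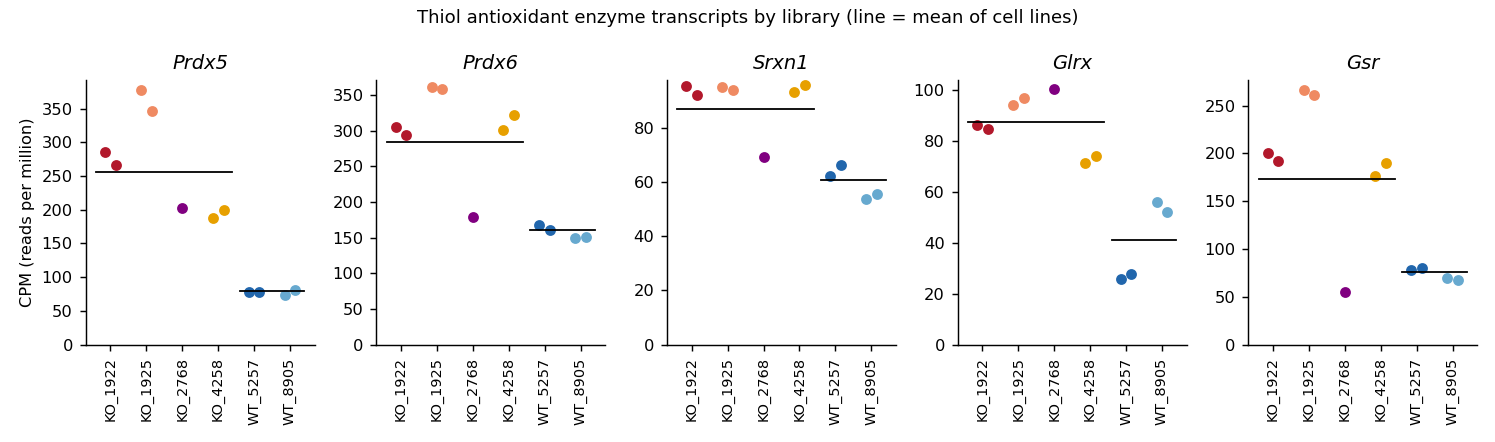
CPM (y axis, from 0) of each transcript in each library, 1 point per library, grouped and coloured by cell line (x axis), with a black line at the mean of the lines of each genotype. Prdx5 is 193 CPM or more in every KO line against 78.6 and 79.9 CPM, and KO_2768 is the lowest line for Gsr but the highest for Glrx.

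Prdx5, a peroxiredoxin found in mitochondria, peroxisomes and cytosol, showed the widest separation. Its level was 272 CPM in KO_1922, 358 CPM in KO_1925, 200 CPM in KO_2768 and 193 CPM in KO_4258, against 79.9 CPM in WT_5257 and 78.6 CPM in WT_8905. The groups did not overlap, and the lowest KO line was 2.42-fold above the highest WT line. The mean was 256 ± 77.1 CPM (SD, n = 4 lines) against 79.2 ± 0.903 CPM (SD, n = 2 lines). The log2 fold change was 1.69 (SE 0.32, 95% interval 0.91 to 2.48), with an adjusted p of 0.222 by edgeR's quasi-likelihood test.

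Prdx6, a peroxiredoxin that uses glutathione and also acts on phospholipids, had smaller differences. It was at 295 CPM in KO_1922, 356 CPM in KO_1925, 176 CPM in KO_2768 and 311 CPM in KO_4258, against 169 CPM in WT_5257 and 152 CPM in WT_8905. The groups did not overlap, but KO_2768 was 1.04-fold above WT_5257 by line sums. With each library scaled separately, KO_2768 was at 179 CPM against 167 and 161 CPM in WT_5257. On that scale, duplicate libraries of 1 line differed by up to 1.07-fold. The log2 fold change was 0.83 (SE 0.31, 95% interval 0.07 to 1.59; edgeR adjusted p = 0.428). Without KO_2768 it was 0.93.

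Srxn1 had the smallest fold change. Its level was 92.6 CPM in KO_1922, 93.6 CPM in KO_1925, 68.1 CPM in KO_2768 and 94.3 CPM in KO_4258, against 66.4 CPM in WT_5257 and 55.7 CPM in WT_8905. KO_1922, KO_1925 and KO_4258 lay close together, and KO_2768 was 1.03-fold above WT_5257 by line sums. With each library scaled separately, KO_2768 was at 69.2 CPM against 62.1 and 66.4 CPM in WT_5257. Duplicates differed by up to 1.07-fold on that scale. The log2 fold change was 0.51 (SE 0.21, 95% interval 0.01 to 1.02; edgeR adjusted p = 0.458). The median over all listed genes tested was 0.49, so Srxn1 stood 0.02 above it.

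Glrx, the cytosolic glutaredoxin, was the only member of the 5 with its highest value in KO_2768. It was at 83.9 CPM in KO_1922, 94.3 CPM in KO_1925, 98.6 CPM in KO_2768 and 72.4 CPM in KO_4258, against 27.6 CPM in WT_5257 and 54.7 CPM in WT_8905. The groups did not overlap, and the WT lines were 1.98-fold apart, more than the 1.36-fold range of the KO lines. The log2 fold change was 1.09 (SE 0.32, 95% interval 0.30 to 1.88; edgeR adjusted p = 0.330). It was 0.58 without WT_5257 and 1.67 without WT_8905, so its size rested on the WT line used.

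Gsr varied most among the KO lines. Its level was 193 CPM in KO_1922, 261 CPM in KO_1925, 54.4 CPM in KO_2768 and 183 CPM in KO_4258, against 81.8 CPM in WT_5257 and 69.8 CPM in WT_8905. KO_2768 lay below both WT lines, and the other 3 KO lines lay above them. The log2 fold change was 1.19 (SE 0.60, 95% interval -0.29 to 2.67; edgeR adjusted p = 0.611). Without KO_2768, which has a single library, it was 1.41 (edgeR adjusted p = 0.196), and all 5 transcripts then lay above both WT lines in every remaining KO line, as did 43.0% of the listed genes tested.

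No member passed the threshold of 0.05 with adjustment for 20000 tests, and neither did any other listed gene (0% raised; smallest adjusted p = 0.0955 by edgeR). At an unadjusted p under 0.05, 4 of the 5 transcripts were higher in KO lines (all but Gsr), against 21.5% of listed genes called higher at that level (917 of 4268, with 1237 lower). With DESeq2's size factors 2 of the 5 passed that level, beside 762 listed genes higher and 1517 lower, and with the authors' size factors 4 passed, beside 1122 higher and 920 lower. Adjusted over the listed genes tested, Prdx5 passed (edgeR adjusted p = 0.0474), as did 1.66% of listed genes in the same direction. The other 4 had values of 0.0705 to 0.130. The listed genes were selected on the same libraries, so passing under this adjustment is not independent of that selection. An exact two-sided permutation test over the 6 lines took 2 times the smaller one-sided p. This permutation test gave p = 0.133 for Prdx5, Prdx6, Srxn1 and Glrx, and 0.4 for Gsr. Under that rule, 0.133 is the smallest value that the 15 splits allow.

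Counting every library as a separate sample, which treats duplicates of 1 line as independent, all 5 passed, with edgeR adjusted p from 0.000621 (Prdx5) to 0.0297 (Gsr), as did 24.8% of the genes tested in the same direction. DESeq2 on the line sums called Prdx5 higher (adjusted p = 0.000605) and not Glrx (adjusted p = 0.0681) or the other 3, against 12.0% of the genes tested.

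**Figure D2:**
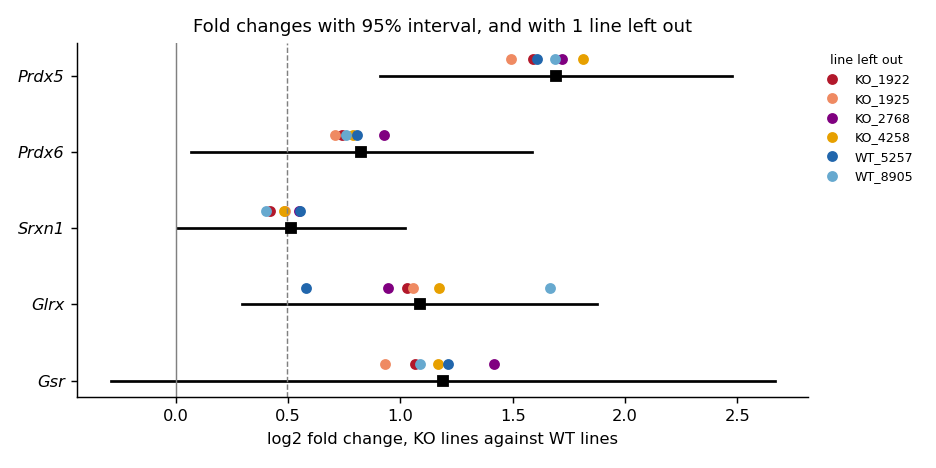
Log2 fold change of KO against WT lines (x axis) for each transcript: squares with bars are the edgeR fit with its 95% interval, coloured points the same fit with 1 line left out, the solid line 0 and the dashed line the median of all listed genes tested (0.49). Only the bar of Gsr crosses 0, and the points of Glrx spread from 0.58 to 1.67.

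Duplicate libraries differed by at most 1.11-fold for any of the 5, less than the range of the KO lines for each. On the log2 scale, the SD over the KO lines was 0.20 for Glrx, 0.23 for Srxn1, 0.42 for Prdx5, 0.44 for Prdx6 and 1.00 for Gsr, beside a median of 0.39 over all listed genes tested. From the lowest to the highest KO line, Gsr spanned 4.79-fold, Prdx6 2.02-fold and Prdx5 1.86-fold. Between the WT lines, Prdx5 differed by 1.02-fold, Prdx6 by 1.11-fold, Gsr by 1.17-fold and Srxn1 by 1.19-fold.

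Levels per transcript length (FPKM) allow the genes to be set against each other. In KO lines, the levels were 143 ± 45.2 FPKM for Prdx5 and 121 ± 32.8 FPKM for Prdx6, followed by 66.0 ± 9.87 for Glrx, 65.7 ± 33.2 for Gsr and 31.5 ± 4.63 for Srxn1 (SD, n = 4 lines). Prdx5 and Prdx6 did not differ beyond this spread, nor did Glrx and Gsr. In WT lines, Prdx6 came first with 65.3 ± 5.04 FPKM, then Prdx5 with 42.1 ± 0.561, Glrx with 29.6 ± 13.8, Gsr with 27.5 ± 3.12 and Srxn1 with 21.0 ± 2.62 (SD, n = 2 lines). There Prdx5, Gsr and Srxn1 all lay within 1 SD of Glrx, while Prdx6 lay beyond the spread of Prdx5. Within each line, Prdx5 was above Glrx, at 42.5 against 19.9 FPKM in WT_5257 and 41.7 against 39.4 FPKM in WT_8905. Gsr and Srxn1 were above Glrx in WT_5257 and below it in WT_8905.

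The order of both peroxiredoxins was not the same in all lines. The FPKM of Prdx5 divided by that of Prdx6 was 1.20 in KO_1922, 1.31 in KO_1925, 1.48 in KO_2768 and 0.812 in KO_4258, against 0.617 in WT_5257 and 0.676 in WT_8905. The ratio was therefore above 1 in 3 of the 4 KO lines and under 1 in both WT lines, with no overlap between the groups. Both genes were selected as different in the same libraries, so this separation is not independent of that selection. The FPKM of Gsr divided by that of Glrx was 1.16, 1.39 and 1.27 in KO_1922, KO_1925 and KO_4258, and 0.278 in KO_2768. It was 1.49 in WT_5257 and 0.643 in WT_8905, so the groups overlapped.

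The summed FPKM of the 5 genes was 462 in KO_1922, 559 in KO_1925, 306 in KO_2768 and 381 in KO_4258, against 184 in WT_5257 and 187 in WT_8905. Prdx5 made up 27.0% to 36.4% of the sum in KO lines and 22.3% and 23.1% in WT lines. Gsr was 6.76% of the sum in KO_2768 and 16.4% to 17.9% in the other KO lines, while Glrx was 24.3% in KO_2768 and 12.8% to 14.2% in those 3 lines. Srxn1 held a smaller share in every KO line (6.09% to 8.55%) than in WT_8905 (10.2%) and WT_5257 (12.4%), since its level differed less than the sum did.

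**Figure D3:**
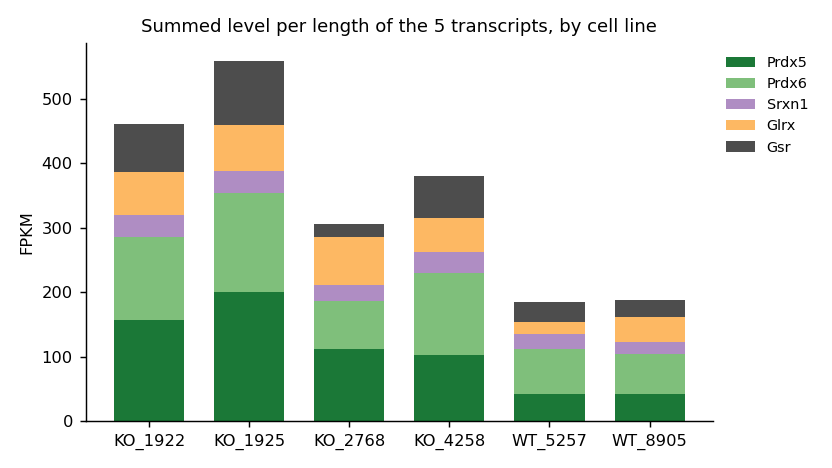
Stacked FPKM (y axis, from 0) of the 5 transcripts in each cell line (x axis), the mean of duplicate libraries. The sums are 306 to 559 FPKM in KO lines and 184 and 187 FPKM in WT lines, with a narrow Gsr segment in KO_2768.

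Across the 11 libraries, Pearson's r of log2 CPM between members ranged from 0.55 (Glrx with Gsr) to 0.97 (Prdx6 with Srxn1, and Prdx6 with Gsr). Prdx5 had r of 0.82 to 0.91 with the other 4. These are descriptions: duplicates share a line, and the genotype difference alone raises r. The listed genes most like Prdx5 were Capzb (r = 0.98), an actin-capping subunit, and Piezo1 (r = 0.98), a mechanosensitive channel. Those most like Prdx6 were Cyld (r = 0.99), a deubiquitinase, and Il1a (r = 0.99), a cytokine. Srxn1 was most like Tmem234 (r = 0.99) and Dynlt3 (r = 0.98), Glrx like Tlr5 (r = 0.995) and Cblb (r = 0.995), and Gsr like Smc5 (r = 0.99) and Cdv3 (r = 0.99). Tlr5, the flagellin receptor, ran from 7.98 to 17.7 CPM in KO lines, highest in KO_2768, and was at 0.347 CPM in WT_5257 and 3.87 CPM in WT_8905. Smc5, a chromosome maintenance subunit, was lowest in KO_2768, at 65.5 CPM against 70.2 and 78.9 CPM in the WT lines.

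Of 46 genes on a wider list of the thiol antioxidant system, 13 were in the table, the 5 members and 8 others. The 33 not listed were not analysed here. Among the 8 others, 4 were higher and 4 lower in the mean of KO lines, and 0 passed the adjusted threshold. Their median log2 fold change was 0.11, beside 0.49 over all listed genes tested and 1.09 for the 5 members. The members were chosen with earlier results of these data known, so their higher median is not independent of that choice.

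The lower ones included Gpx4, which reduces lipid hydroperoxides with glutathione. It was at 520, 403, 627 and 858 CPM in KO_1922, KO_1925, KO_2768 and KO_4258, against 1077 CPM in WT_5257 and 1155 CPM in WT_8905. Every KO line was below both WT lines, opposite to Prdx5 and Prdx6 (log2 fold change -0.89, SE 0.32, edgeR adjusted p = 0.407). Of all listed genes tested, 38.2% also had every KO line below both WT lines. Msrb2, a mitochondrial methionine sulfoxide reductase, was at 5.09 to 15.4 CPM against 24.1 and 27.7 CPM, with a log2 fold change of -1.61 (SE 0.50). Txnl1, a thioredoxin-like protein, was at 155 to 185 CPM against 204 and 215 CPM (log2 fold change -0.28, SE 0.15). Glrx5, the mitochondrial glutaredoxin of iron-sulfur cluster assembly, was at 35.6 to 58.3 CPM against 55.7 and 126 CPM, with a mean of 45.4 against 90.6 CPM, while the cytosolic Glrx had the higher mean in KO lines.

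Of the higher ones, Gpx3, the secreted glutathione peroxidase, was at 140 CPM in KO_2768 and 0.851 to 2.79 CPM in the other KO lines, against 0.442 and 1.09 CPM. The summed fibroblast and smooth muscle markers were also highest in KO_2768, which has 1 library. In KO_1922 and KO_1925 that sum was 2095 and 2868 CPM, with Gpx3 at 2.79 and 1.72 CPM. The part of fibroblast or smooth muscle cells in the Gpx3 values was not tested. Sesn2, a stress-inducible sestrin, was at 29.6 to 38.9 CPM against 20.4 and 27.8 CPM (log2 fold change 0.50, SE 0.24). Ggt1, a gamma-glutamyltransferase, was at 0.483 to 1.67 CPM against 0.0631 and 0.437 CPM. Ggt6, of the same family, had no more than 2 reads in any WT library and was at 1.55 to 2.31 CPM in KO_1922, KO_1925 and KO_2768, but at 0.0460 CPM in KO_4258.

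**Figure D4:**
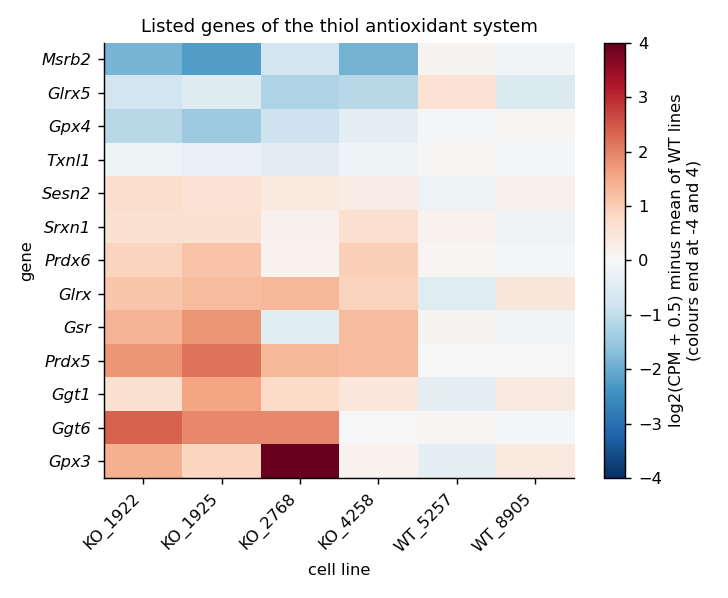
Colour gives log2(CPM + 0.5) minus the mean of the WT lines, for the 13 listed genes of the thiol antioxidant system (rows, ordered by log2 fold change) in each cell line (columns). Msrb2, Gpx4 and Txnl1 are below both WT lines in all 4 KO lines, as are 38.2% of all listed genes tested. KO_2768 stands apart for Gpx3 and Gsr.

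Genes that use glutathione or supply NADPH gave counts in both directions. Of 24 glutathione transferases, 7 were listed, with 3 higher, 4 lower and 0 past the adjusted threshold (median log2 fold change -0.83). The microsomal transferase Mgst1 was at 220 to 393 CPM in KO lines against 817 and 959 CPM (log2 fold change -1.70, SE 0.28; edgeR adjusted p = 0.197), and Mgst2 at 18.1 to 27.1 CPM against 62.8 and 76.7 CPM (log2 fold change -1.74, SE 0.23). Gsta3, a cytosolic transferase, was at 6.26 to 48.0 CPM in KO lines and had a mean of 25.7 CPM against 87.8 CPM. All 3 were thus below both WT lines in every KO line, as were 38.2% of the listed genes tested. Gsr, which keeps glutathione in the reduced form that transferases use, was higher in 3 of 4 KO lines.

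Of 18 NADPH sources, 8 were listed, with 5 higher, 3 lower and 0 past the adjusted threshold (median log2 fold change 0.69). Aldh1l1, a folate enzyme that makes NADPH, was at 59.9 CPM in KO_2768, at 0 to 4.20 CPM in the remaining KO lines and at 0 and 0.158 CPM in WT lines. Me3, a mitochondrial malic enzyme, was at 5.12 to 9.18 CPM against 0.379 and 3.34 CPM, and Mthfd1, a cytosolic folate enzyme, at 49.6 to 111 CPM against 80.1 and 257 CPM. Of the superoxide dismutases and catalase, 2 of 4 genes were listed. Sod1, the cytosolic dismutase, was at 163 to 227 CPM against 161 and 164 CPM (log2 fold change 0.26, SE 0.18). Sod3, the extracellular one, was at 21.2 CPM in KO_2768, at 0.161 to 0.418 CPM in the remaining KO lines and at 0 reads in every WT library. Of 12 regulators of Nrf2, only Cul3, the ubiquitin ligase scaffold that works with Keap1, was listed. It was at 165 to 193 CPM against 86.8 and 104 CPM (log2 fold change 0.90, SE 0.17; edgeR adjusted p = 0.225), with no overlap.

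The listed genes around each member were also examined. Of those that start within 5 Mb, 61 of 72 around Prdx5 (84.7%), 21 of 23 around Prdx6 (91.3%), 19 of 27 around Srxn1 (70.4%), 2 of 9 around Glrx (22.2%) and 6 of 6 around Gsr were higher in KO lines, beside 58.6% of all listed genes tested. Their median log2 fold changes were 0.69, 1.60, 0.92, -1.26 and 0.59 in the same order. For Glrx the share changed with the window: 2 of 4 genes were higher within 2 Mb (50%, median log2 fold change 0.17) and 6 of 16 within 10 Mb (37.5%, median -0.68). On the whole chromosomes, 78.9% of the listed genes tested were higher on that of Prdx5, 78.9% on that of Prdx6, 45.2% on that of Srxn1, 57.8% on that of Glrx and 77.5% on that of Gsr.

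The listed genes nearest to Prdx5 were Ccdc88b, at 1.90 to 10.2 CPM in KO lines against 0.221 and 0.843 CPM, and Bad, an inducer of apoptosis, with a log2 fold change of 0.45 (SE 0.30) against 1.69 for Prdx5. Beside Prdx6 lay Klhl20 and Suco, with log2 fold changes of 0.26 and 0.25. Beside Srxn1 lay Gm14154, at no more than 0.444 CPM in any line, and H13, a signal peptide peptidase, with a log2 fold change of 0.81 (SE 0.17). The gene before Glrx was Erap1, an aminopeptidase of antigen processing, at -0.57 (SE 0.21), and the gene after it was Mctp1, at 7.21 CPM in KO_2768 and no more than 0.897 CPM in the other lines. Gsr lay between Wrn, a DNA helicase, with a log2 fold change of 0.48 (SE 0.23) and Tnks, a poly-ADP-ribose polymerase, with 0.42 (SE 0.27). In the single library of KO_2768, where Gsr was lowest, Tnks was close to the WT lines, at 74.4 CPM against 75.2 and 77.7 CPM. Wrn was at 32.0 CPM in KO_2768 against 26.6 and 27.6 CPM in WT lines.

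**Figure D5:**
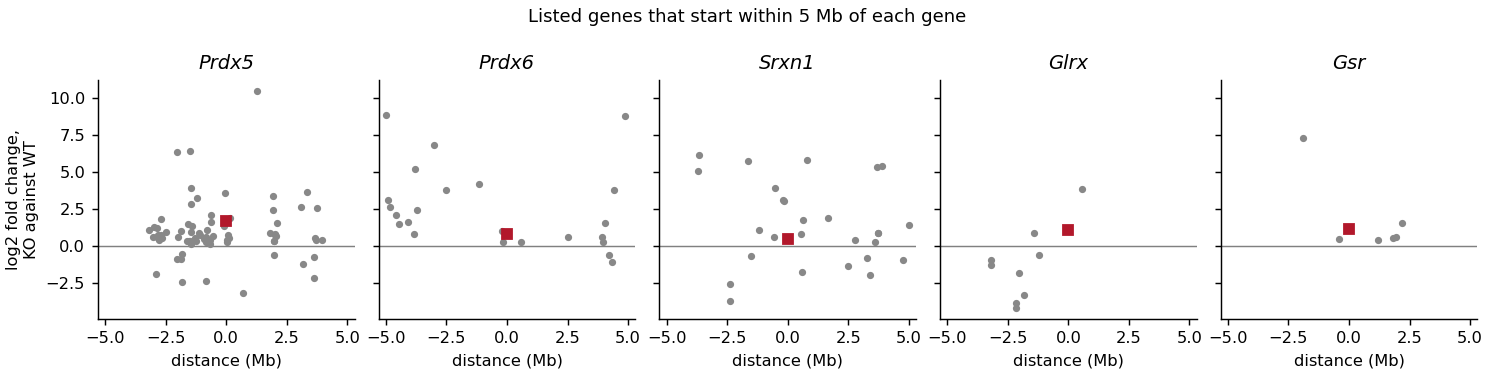
Log2 fold change of KO against WT lines (y axis) of listed genes (grey points) by the distance of their start from the start of each member (x axis, Mb), with the member as a red square at 0. Within the 5 Mb shown on either side, 61 of 72 points lie above 0 around Prdx5, 21 of 23 around Prdx6, 19 of 27 around Srxn1, 6 of 6 around Gsr and 2 of 9 around Glrx, for which 2 of the 4 points within 2 Mb lie above 0.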

How the data were processed

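Mouse RNA-Seq libraries (7 from 4 NIC/Cpt1a L/L lines, 4 from 2 NIC/Cpt1a +/+ lines) were analyzed. The authors aligned reads to mm10 with STAR, counted them per gene with HTSeq and deposited the raw counts. The deposited normalized signal is the read count over 1 size factor per library, and the deposited FPKM is the count per length and depth. The same table holds log2 fold changes and p-values that the authors obtained with DESeq2, and these were not used. The submitters' processing notes also name Trimmomatic, edgeR and limma.

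Library totals were recovered from counts, lengths and FPKM, since the 4461 listed genes hold 33.3% to 34.6% of the reads. Duplicates were summed by line, since the line is the replicate. Counts were scaled with TMM (factors 0.969 to 1.05), filtered with filterByExpr (4268 genes kept) and tested with edgeR's quasi-likelihood test (edgeR 4.0.16, limma 3.58.1, R 4.3.3). Benjamini-Hochberg adjustment counted 20000 tests, a round number above the genes likely tested by the authors, with a threshold of 0.05. The alternatives changed the sample unit (with and without a replicate block), the normalization, the filter, the adjustment, DESeq2 1.42.0, each line left out and 1 library per line. The fit was tested on simulated data with 200 changed genes. Floors of 3 counts cover counting error only. The labels do not say which lines came from separate mice, so p-values measure the spread between these lines. Figures used matplotlib 3.10.9 (Python 3.11.15).

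The members and gene lists were chosen with earlier results of these data known. Named genes are the 5 members, every listed gene of the thiol list, the 3 largest fold changes of each other list, the 2 listed genes most correlated with each member, and the nearest listed gene on either side.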

Additional observations from a re-analysis of the deposited data

Results flagged for a closer look

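Among the 4 KO lines, the Srxn1 level of KO_2768 (68.1 CPM) stood apart from the other 3 lines (92.6 to 94.3 CPM). Its gap to the nearest line was 0.935 of the whole range, above Dixon's 95% critical value for 4 samples. Chance gives such a gap in about 1 of 20 groups, and 5 genes were examined.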

How the results depend on the processing

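Over 15 alternatives, the log2 fold changes of the 5 genes gave 75 values, all above 0, and 63 kept their side of the threshold. The number of listed genes called was 0 by line, 2499 with each library a separate sample, 2148 with the replicate block as well, 219 with adjustment over the listed genes and 1175 with DESeq2, and 0 under the others. With each library separate, the log2 fold changes past the threshold were 1.68 (Prdx5), 0.85 (Prdx6), 0.51 (Srxn1), 1.00 (Glrx) and 1.27 (Gsr), and with the replicate block 1.68, 0.86, 0.51, 1.00 and 1.28. These fits count duplicates of 1 line as separate samples. The replicate numbers did not pair libraries across lines (correlations of deviations -0.0430 to 0.0359 over 10 pairs of lines). Prdx5 also passed with adjustment over the listed genes (1.69), which counts fewer tests, all of genes selected on the same libraries. It passed with DESeq2 as well (1.56), where the cause was not tested. Other scalings gave 1.56 to 1.79 for Prdx5 and 0.38 to 0.61 for Srxn1, while the median of all listed genes ran from 0.37 to 0.59. With 1 line left out, adjusted p by edgeR ranged from 0.171 to 0.817 for Prdx5 and reached 1 for the other 4. The number of members at an unadjusted p under 0.05 was 2 without KO_1922, KO_1925 or KO_4258 and 5 without KO_2768, against 4 with all lines. Listed genes higher at that level were 533 of 4129 without KO_1922, 613 of 4161 without KO_1925 and 1131 of 4209 without KO_4258. They were 849 of 4220 without KO_2768 and 917 of 4268 with all lines. The log2 fold changes of the members were 0.55 to 1.61 without WT_5257 and 0.40 to 1.69 without WT_8905. The number of members at that level was also 2 with DESeq2's size factors (762 of 4268 listed genes higher) and with DESeq2 (1214 of 4194). It was 3 without the expression filter (841 of 4461) and with the second library of each line (726 of 4050). The count of members above both WT lines was 4 or 5 without each KO line, a setting added after seeing the data. It was 4 without KO_1922, KO_1925 or KO_4258, beside 36.3%, 36.6% and 45.8% of the listed genes tested. Without KO_2768 it was 5, beside 43.0%. The share of higher neighbours of Prdx6 was 100% within 2 Mb, of 4 genes, and that of Glrx went from 22.2% within 5 Mb to 50% within 2 Mb, its median from -1.26 to 0.17. Only 2 WT lines were available to estimate the spread, and no other depth was tried.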
